A study of Mus musculus with 6 samples.

Results

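Plasma cells are the antibody-secreting end stage of the B lineage, and 10 genes that mark them and their secretory apparatus are described here: Jchain, Sdc1, Xbp1, Prdm1, Derl3, Fkbp11, Eaf2, Creld2, Sec11c and Mzb1. They were taken by symbol from the 56413 symbols of the deposited table. All 10 were found and all 10 were abundant enough to be tested, among 18716 tested genes. RNA came from freshly isolated total mouse splenocytes of 3 Top3b-KO libraries, which carry a knockout of the topoisomerase III-beta gene, and of 3 WT libraries. It was sequenced after ribosomal RNA had been removed; the protocol describes 2 library kits, each with such a step, and 2 sequencers, without saying which served these libraries. The labels and design text used here state no strain, age, knockout allele or treatment, nor do they say that each library came from its own animal, so the p-values measure the spread between these libraries. The design text asks what Top3b does against immune dysregulation and tumour formation, and the antibody-secreting compartment is one immune output in that setting.

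A plasma cell turns most of its protein synthesis over to immunoglobulin. The repressor Blimp-1, encoded by Prdm1, shuts down the B cell programme, and XBP1 enlarges the endoplasmic reticulum (ER) and switches on its folding, cleavage and degradation machinery. In the spleen such cells sit mainly in the red pulp and are a small part of all splenocytes. In RNA of total splenocytes their genes are therefore read beside the same genes in other cells. Xbp1, Prdm1, Sec11c and Creld2 are also used outside the B lineage, whereas Jchain and the constant regions of switched heavy chains are more closely tied to antibody secretion.

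Total counts ran from 9941014 to 25473404 in Top3b-KO libraries and from 15262060 to 15860287 in WT libraries, with Top3b-KO replicate 3 the smallest. Top3b averaged 49.8 ± 1.66 CPM (depth-scaled counts, with edgeR's TMM factors) in Top3b-KO and 91.0 ± 4.06 CPM in WT (SD, n = 3 each), a log2 fold change of -0.87 with an adjusted p of 5.78e-06 by edgeR. The deleted stretch of the gene was not examined, so this count over the whole gene is only a partial check of the knockout label. All 9 markers of the main splenocyte classes, among them Ptprc, Cd79a and Cd3e, were detected, with summed levels of 5630 to 5913 CPM in Top3b-KO libraries and 5324 to 5895 CPM in WT libraries.

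None of the 10 plasma cell genes passed the test between genotypes, edgeR's quasi-likelihood F test with a false discovery threshold of 0.05. In Top3b-KO 0 were higher, against 0.00534% of all tested genes, and 0 were lower, against 0.00534%, or 0.0107% in either direction. At an unadjusted p under 0.05 the count of members was again 0, against 5.52% of all tested genes, and DESeq2 gave 0 on both measures. The lowest adjusted p of a member was 0.896 by edgeR, for Sdc1. For all 10 genes the Top3b-KO and WT libraries overlapped, whereas the groups did not overlap for 11% of tested genes. Whether a difference in these genes would come from fewer plasma cells or from less RNA in each cannot be told apart in RNA of total splenocytes.

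The fold changes leaned to the lower side without any single gene passing. The log2 fold change of Top3b-KO over WT was below 0 for 9 of 10 members, with Eaf2 the exception, and below 0 for 50.9% of all tested genes. The median was -0.084 over the members and -0.0029 over all tested genes. This lean rested on single libraries, since leaving out WT replicate 1 left 5 of 10 members below 0, and leaving out Top3b-KO replicate 3 also left 5 of 10. Removing WT replicate 1 gave a median of -0.036 and removing Top3b-KO replicate 3 one of -0.013. Removing WT replicate 2, WT replicate 3, Top3b-KO replicate 1 or Top3b-KO replicate 2 gave -0.14, -0.15, -0.19 and -0.066 in that order. Of the 10 genes, 5 had their highest level in WT replicate 1 and 5 their lowest in Top3b-KO replicate 3, the library with the fewest counts. The part of depth in this was not tested.

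**Figure D1:**
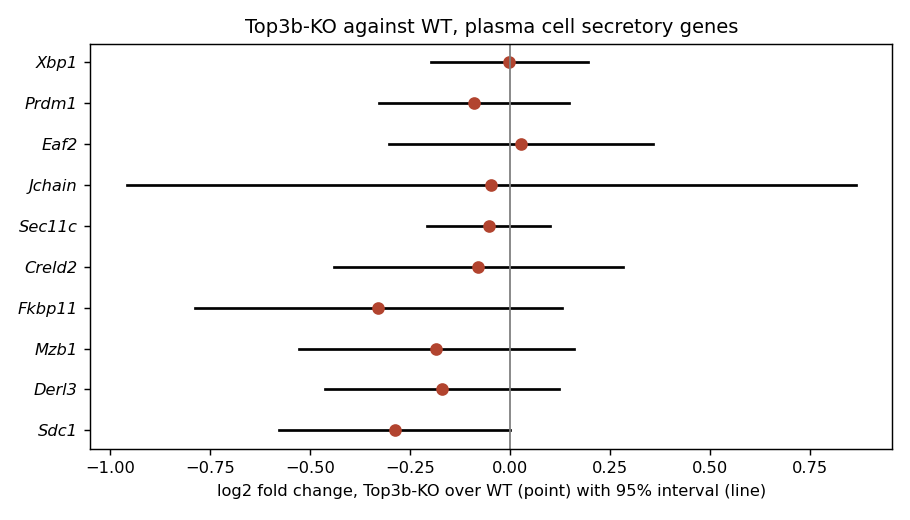
Log2 fold change of Top3b-KO over WT for each of the 10 plasma cell secretory genes (x axis), with points for edgeR's estimate and lines for its 95% interval over 3 libraries per genotype. Every line crosses 0, the Jchain line is the longest at -0.96 to 0.87, and the Sdc1 line ends at 0.0014.

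Xbp1 encodes the transcription factor that expands the secretory apparatus after the ER sensor IRE1 has cut a short intron out of its mRNA. Its level was 83.3, 72.2 and 73.7 CPM in Top3b-KO libraries and 89.4, 68.2 and 72.1 CPM in WT libraries. The first library of each genotype was the highest, and the others lay close together. The log2 fold change was -0.0011 with a 95% interval of -0.20 to 0.20, so the ratio of Top3b-KO to WT lay between 0.872 and 1.145. A count per gene does not separate the spliced form of Xbp1 from the unspliced one, so the activity of the pathway was not measured by it.

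Prdm1 was at 21.4, 18.1 and 17.2 CPM in Top3b-KO libraries, against 22.8, 18.4 and 19.6 CPM in WT libraries. Both genotypes spanned nearly the same range, with a log2 fold change of -0.089 (95% interval -0.33 to 0.15). Eaf2, an ELL-associated factor of transcription elongation that is also present in germinal centre B cells, had 6.55, 6.73 and 6.17 CPM in Top3b-KO libraries and 7.17, 5.11 and 6.91 CPM in WT libraries. The Top3b-KO values sat inside the WT range, and the log2 fold change was 0.028 (95% interval -0.30 to 0.36). Eaf2 lies on chromosome 16, as Top3b does, about 19.9 Mb away on GRCm38. It overlaps Iqcb1 on the opposite strand, which was at 25.7 ± 0.80 CPM in Top3b-KO and 24.3 ± 1.92 CPM in WT (SD, n = 3 each), and reads in the overlap cannot be assigned without knowing the strand setting of the counting.

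Jchain encodes the joining chain that links IgM and IgA into polymers for secretion, and it was the most variable of the 10 genes. Its level was 237.2, 175.0 and 120.1 CPM in Top3b-KO libraries and 236.5, 146.6 and 170.3 CPM in WT libraries. One library of each genotype stood near the same high value, and the lowest and highest Top3b-KO libraries differed 1.98-fold. The log2 fold change was -0.046 with a 95% interval of -0.96 to 0.87, which leaves room for a ratio anywhere from 0.515 to 1.82. Single libraries set its sign: the log2 fold change was 0.17 when WT replicate 1 was removed and 0.16 when Top3b-KO replicate 3 was. It was -0.19 and -0.097 after removing WT replicates 2 and 3, and -0.30 and -0.027 after removing Top3b-KO replicates 1 and 2. Within genotypes its spread was larger than that of 99.55% of the 1329 genes within 1.5-fold of its mean level.

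**Figure D2:**
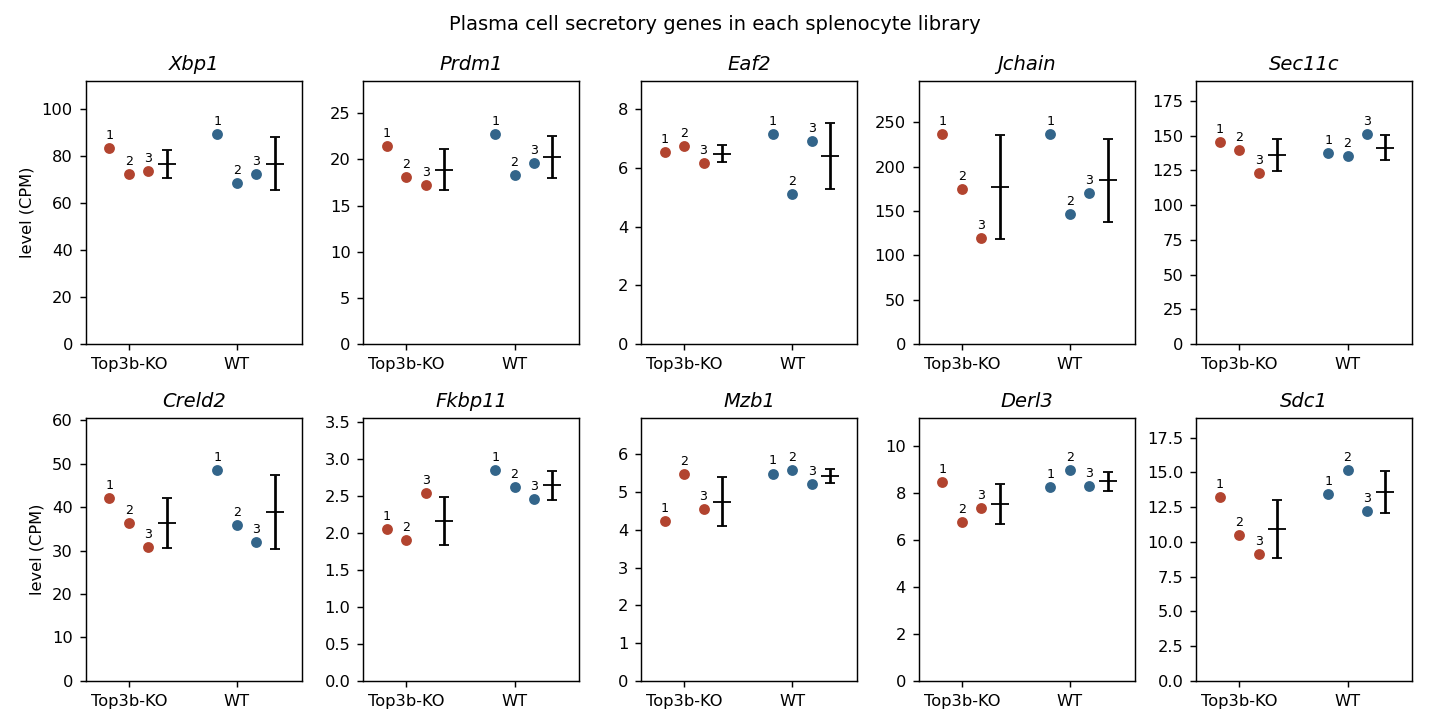
Level in CPM (y axes, each from 0) of the 10 plasma cell secretory genes, with 1 point per library numbered by replicate, Top3b-KO in red and WT in blue, and black bars for mean ± SD (n = 3). The genotypes overlap in all 10 panels, and Jchain reaches 237.2 and 236.5 CPM in replicate 1 of Top3b-KO and WT.

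The heavy chain constant genes of switched isotypes, the cargo that such cells export, varied along with Jchain. Summed over Ighg1, Ighg2b, Ighg2c and Ighg3, IgG transcripts had 223.2, 169.0 and 104.7 CPM in Top3b-KO libraries and 305.6, 114.5 and 153.0 CPM in WT libraries. The highest IgG sum was in WT replicate 1 and the lowest in Top3b-KO replicate 3. Igha, the IgA heavy chain, was at 511.1, 181.8 and 204.2 CPM in Top3b-KO libraries and 299.7, 243.9 and 286.3 CPM in WT libraries. Top3b-KO replicate 1 was the high library for Igha, and the same library was among the highest for Jchain. Over the 6 libraries Pearson's r of log2 CPM with Jchain was 0.970 for Ighg1, 0.964 for Ighg2b, 0.912 for Ighg3, 0.712 for Igha, 0.678 for Ighg2c, 0.785 for Igkc and 0.608 for Ighm. These are descriptions of the same 6 libraries, which differ in depth and genotype, and all 4 IgG genes and Igha spread more within genotypes than over 99% of genes at like levels. Neither the IgG genes nor Igha passed edgeR's test, with adjusted p between 0.972 and 0.988.

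**Figure D3:**
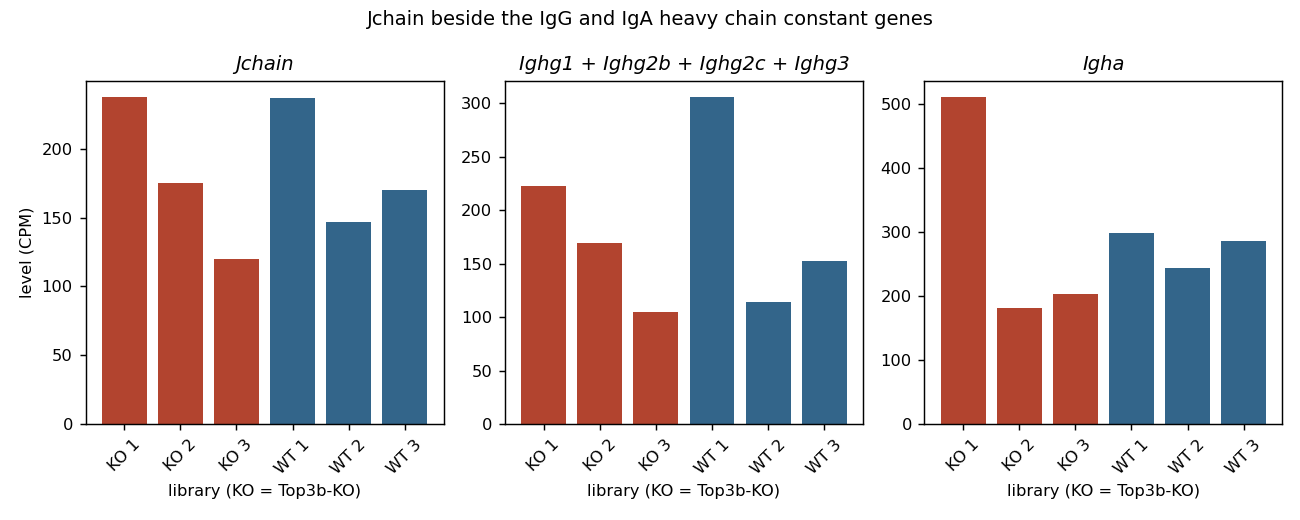
Level in CPM (y axes) of Jchain, of the sum of the 4 IgG heavy chain constant genes and of Igha in each of 6 libraries (x axes), Top3b-KO in red and WT in blue. Jchain and the IgG sum are both lowest in Top3b-KO replicate 3, at 120.1 and 104.7 CPM, while Igha is highest in Top3b-KO replicate 1 at 511.1 CPM.

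Sec11c had the smallest ratio of highest to lowest library among the 10 genes, 1.23. It encodes a catalytic subunit of the signal peptidase that cuts the leader off proteins entering the ER. Levels were 145.3, 139.8 and 123.1 CPM in Top3b-KO libraries and 137.7, 135.4 and 151.5 CPM in WT libraries. Both ranges overlapped, and the log2 fold change of -0.053 had the narrowest 95% interval of the 10 genes, -0.21 to 0.10, a ratio of 0.866 to 1.07. In GENCODE M21 Sec11c overlaps the gene model AC124578.1, and its paralogue Sec11a overlaps Nmb, Gm16171 and Gm45718. How reads in such overlaps were counted is not known.

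Creld2, an ER-resident protein with disulphide isomerase activity that is induced by ER stress, had 42.2, 36.3 and 30.8 CPM in Top3b-KO libraries and 48.5, 36.0 and 32.1 CPM in WT libraries. Replicate 1 was the highest library of each genotype, and the labels do not say that replicate numbers pair the libraries. The log2 fold change was -0.079 (95% interval -0.44 to 0.28), with a change of sign to 0.11 when WT replicate 1 was left out and to 0.016 when Top3b-KO replicate 3 was. Removing other libraries moved it to -0.20 (WT replicate 3), -0.19 (Top3b-KO replicate 1) and -0.13 (WT replicate 2). Its spread within genotypes was larger than that of 98.0% of genes at like levels.

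Derl3 encodes a derlin, which helps draw misfolded proteins out of the ER for degradation. It was at 8.48, 6.77 and 7.39 CPM in Top3b-KO libraries, against 8.27, 8.98 and 8.29 CPM in WT libraries. The lower values in Top3b-KO were those of replicates 2 and 3, and replicate 1 lay among the WT libraries. The log2 fold change was -0.17 (95% interval -0.46 to 0.12), and it was -0.27 when Top3b-KO replicate 1 was left out and -0.079 when Top3b-KO replicate 2 was.

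The promoters of Creld2 and Derl3 are shown because, of 8 members matched to RefSeq promoter windows (GRCm38.p6, 250 bases before to 50 after the start), these were the 2 that hold the ER stress response element, the composite site through which ATF6 and XBP1 act with NF-Y. The element was searched on both strands as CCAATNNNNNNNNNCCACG, and it was present in 0.119% of all 32851 windows. A gene was counted if any of its windows held the motif, and 0.137% of 27025 genes did. The capitals mark its 2 conserved ends, which read on the opposite strand in both genes, from 126 to 108 bases before the start in Creld2 and from 156 to 138 bases before it in Derl3. The windows are chr15:88819396-88819645 and chr10:75893148-75893397 on GRCm38.p6, plus strand, 250 bases each.
Creld2: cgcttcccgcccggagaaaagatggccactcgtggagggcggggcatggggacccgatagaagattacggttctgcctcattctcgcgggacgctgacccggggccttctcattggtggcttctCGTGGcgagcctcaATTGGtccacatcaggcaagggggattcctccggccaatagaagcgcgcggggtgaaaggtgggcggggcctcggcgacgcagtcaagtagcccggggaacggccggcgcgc
Derl3: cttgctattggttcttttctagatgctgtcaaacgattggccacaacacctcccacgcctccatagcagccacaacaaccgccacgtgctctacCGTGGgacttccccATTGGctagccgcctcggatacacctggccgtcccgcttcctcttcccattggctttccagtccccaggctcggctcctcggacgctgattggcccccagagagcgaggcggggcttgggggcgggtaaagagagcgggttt

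Other ER stress motifs were rarer or less particular among the members. The second form of the element, ATTGGNCCACG, was in 0 of 8 members, 0.0444% of all genes and 0.0365% of all windows. The unfolded protein response element TGACGTGG was in 0 of 8 members, 0.714% of all genes and 0.676% of all windows. The short core ACGTG, which the last of these contains, was in the windows of Jchain, Derl3, Fkbp11 and Eaf2. It was in 21.8% of all genes and 19.6% of all windows. CCAAT alone, which the composite element contains, was in 6 of 8 members, 41.1% of all genes and 37.4% of all windows. No match says only that these letters are not in the window. Of the chosen unfolded protein response genes, 8 of 25 matched promoters held the composite element. Together with Creld2 and Derl3 these 10 genes had log2 fold changes from -0.22 for Syvn1 to 0.14 for Canx, 6 of them above 0, and 0 passed edgeR's test.

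Fkbp11, a peptidyl-prolyl isomerase of the ER, was the least abundant member and had the lowest fold change. Its level was 2.05, 1.90 and 2.53 CPM in Top3b-KO libraries, against 2.84, 2.62 and 2.45 CPM in WT libraries, from 25 to 50 counts per Top3b-KO library and 39 to 44 per WT library. Top3b-KO replicate 3 lay inside the WT range. The log2 fold change was -0.33 with a 95% interval of -0.79 to 0.13, and it stayed below 0 when any 1 library was left out, between -0.42 and -0.24. The adjusted p was 0.915 by edgeR.

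Mzb1 encodes a cochaperone that works with the ER chaperone GRP94 on immunoglobulin heavy chains and is known from marginal zone B cells as well as plasma cells. It had 4.22, 5.47 and 4.55 CPM in Top3b-KO libraries and 5.49, 5.57 and 5.21 CPM in WT libraries. Replicates 1 and 3 of Top3b-KO lay below all WT libraries and replicate 2 among them, with a log2 fold change of -0.18 (95% interval -0.53 to 0.16). Leaving out replicate 1 of Top3b-KO gave -0.078, and leaving out replicate 2 gave -0.31. In GENCODE M21 the Mzb1 gene lies within the span of a gene model named SPATA24, in capitals, on the same strand. Reads that match both may have been dropped or split in the counting, so the level of Mzb1 is uncertain. The symbol Spata24, spelled otherwise, had 9 to 22 counts per library, and whether these include reads of that model is not known.

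Sdc1 encodes syndecan-1, or CD138, the heparan sulphate proteoglycan used to sort plasma cells, which epithelial cells carry too. It was at 13.2, 10.5 and 9.11 CPM in Top3b-KO libraries and 13.4, 15.1 and 12.2 CPM in WT libraries. Top3b-KO replicates 2 and 3 were the lowest of the 6, and replicate 1 lay within the WT range. The mean was 10.9 ± 2.08 CPM in Top3b-KO and 13.6 ± 1.48 CPM in WT (SD, n = 3 each), a log2 fold change of -0.29 (SE 0.138, 95% interval -0.58 to 0.0014) with an adjusted p of 0.896 by edgeR. Leaving out Top3b-KO replicate 1 gave -0.44, and Top3b-KO replicate 3 gave -0.20. Of the epithelial markers Epcam, Cdh1 and Cldn4 were tested and summed to 10.4 to 12.0 CPM in Top3b-KO libraries and 11.2 to 13.7 CPM in WT libraries, while 2 of 8 on that list had no count in any library. Their part in the Sdc1 level was not tested.

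To set the members beside each other, levels were divided by the length of the longest coding transcript in GENCODE M21, giving CPM per kb. On this scale Sec11c and Jchain were the most abundant, at 158.2 ± 13.4 and 127.4 ± 42.1 CPM per kb in Top3b-KO and 164.6 ± 10.1 and 132.4 ± 33.5 CPM per kb in WT (SD, n = 3 each), and their ranges over the 6 libraries overlapped. Xbp1 followed at 35.9 ± 2.84 CPM per kb in Top3b-KO and 36.0 ± 5.29 CPM per kb in WT. Creld2 was next, at 26.7 ± 4.20 CPM per kb in Top3b-KO and 28.4 ± 6.27 CPM per kb in WT, and overlapped with Xbp1. The first pair did not overlap with the second, nor these 4 genes with the other 6, whose means over all libraries ran in the order Derl3 (6.08), Mzb1 (5.62), Sdc1 (3.88), Prdm1 (3.71), Eaf2 (3.43) and Fkbp11 (3.27 CPM per kb), each overlapping with its neighbour.

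Several members have a close paralogue of wider use, and in total splenocytes the plasma cell member was often the minor one. Derl3 was at 5.71 ± 0.654 CPM per kb in Top3b-KO and 6.44 ± 0.307 in WT, below Derl1 (31.3 ± 0.386 in Top3b-KO, 31.4 ± 1.29 in WT) and Derl2 (14.0 ± 0.709 in Top3b-KO, 14.3 ± 1.28 in WT; SD, n = 3 each throughout). Eaf2 was below Eaf1, and Sdc1 below Sdc4 and Sdc3 in every library. Prdm1 was likewise below Prdm2, Prdm4, Prdm10 and Prdm15 per length. The order was the other way for Sec11c, which exceeded Sec11a (59.2 ± 3.50 CPM per kb in Top3b-KO, 58.3 ± 5.28 in WT), and for Creld2, which exceeded Creld1 (5.20 ± 0.767 in Top3b-KO, 5.31 ± 0.237 in WT) in every library. Fkbp11 stood below Fkbp2 (14.3 ± 0.829 CPM per kb in Top3b-KO, 14.5 ± 1.34 in WT) and above Fkbp7, Fkbp9 and Fkbp10, the first of which reached 2.82 CPM per kb in Top3b-KO replicate 3.

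**Figure D4:**
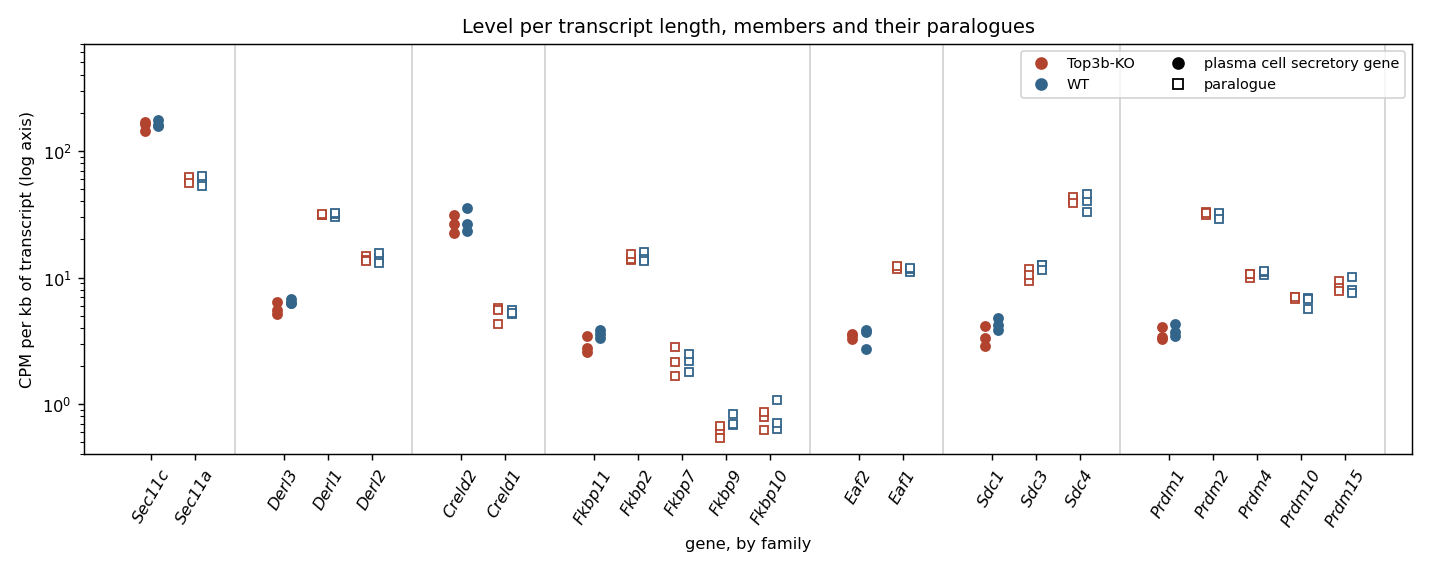
Level in CPM per kb of transcript (y axis, log scale) of 7 plasma cell secretory genes (filled circles) and their paralogues (open squares), grouped by family, with 1 point per library and Top3b-KO to the left of WT. Sec11c and Creld2 lie above their paralogues, while Derl3, Eaf2, Sdc1 and Prdm1 lie below theirs.

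The balance within each family was measured as a share of the family's counts in the same library, which needs no scaling for depth. Sec11c made up 64.3%, 62.5% and 62.3% of Sec11a and Sec11c counts in Top3b-KO libraries, against 63.5%, 65.6% and 64.0% in WT libraries. Derl3 made up 5.26%, 4.35% and 4.69% of derlin counts in Top3b-KO libraries and 5.29%, 5.68% and 4.92% in WT libraries. Sdc1 made up 7.71%, 6.39% and 5.80% of the counts of Sdc1, Sdc3 and Sdc4 in Top3b-KO libraries, and 8.57%, 8.52% and 6.69% in WT libraries. In each of these families the 2 lowest shares were from Top3b-KO replicates 2 and 3, and the genotypes overlapped. Two-sided exact permutation p-values were 0.3, 0.2 and 0.2 in that order, and 0.6 each after Benjamini-Hochberg adjustment over 6 such shares, with 0.1 the smallest p that 3 against 3 libraries can give.

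The share of Creld2 in both Creld genes was 75.1 ± 3.97% in Top3b-KO and 75.7 ± 3.20% in WT, and that of Eaf2 in both Eaf genes was 9.90 ± 0.647% in Top3b-KO and 10.1 ± 1.72% in WT (SD, n = 3 each). Jchain against its partners gave 8.25%, 6.86% and 5.31% of the summed counts of Jchain, Ighm and Igha in Top3b-KO libraries and 7.49%, 5.55% and 7.05% in WT libraries. The highest and the lowest Jchain share were both in Top3b-KO libraries, and the WT shares lay between them. Exact permutation p-values for these shares were 0.9, 0.8 and 1 (adjusted 1 for each).

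Across the 6 libraries the members did not move as a single block. Of 45 pairs, 6 had a Pearson's r of log2 CPM over 0.8 and 10 had one below 0, with a median of 0.31. Jchain, Prdm1, Creld2 and Xbp1 formed the tightest set, with r of 0.92 for Jchain and Prdm1, 0.88 for Jchain and Creld2, 0.87 for Prdm1 with Creld2 and with Xbp1, 0.84 for Xbp1 and Creld2, and 0.79 for Jchain and Xbp1. Sdc1 and Derl3 formed another pair at 0.85, with their highest levels in WT replicate 2. Mzb1, Fkbp11 and Eaf2 followed none of these closely. Each r comes from 6 libraries that differ in depth and genotype, and is given as a description only.

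**Figure D5:**
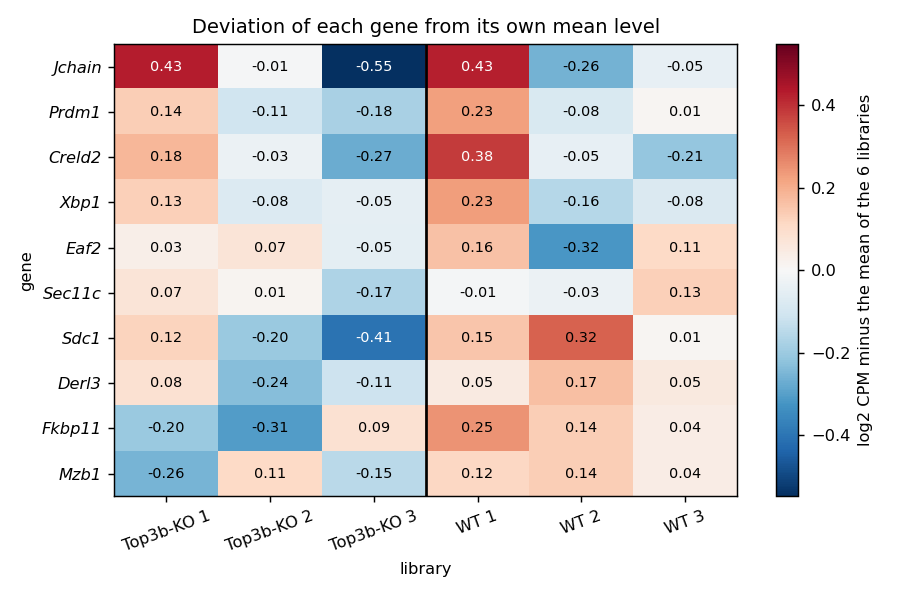
Log2 CPM of each plasma cell secretory gene minus its mean over the 6 libraries (colour and printed value), with genes down the page and libraries across, Top3b-KO left of the black line and WT right of it. Jchain, Prdm1, Creld2 and Xbp1 are high in replicate 1 of both genotypes, with Jchain at 0.43 in each, and Jchain is lowest in Top3b-KO replicate 3 at -0.55.

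Averaged over the 10 genes, the deviation from the mean was 0.073, -0.077 and -0.19 in Top3b-KO libraries and 0.20, -0.014 and 0.0059 in WT libraries on the log2 scale. The first library of each genotype was the highest of its group. Among the 9669 genes averaging 10 CPM or more, those outside the chosen lists whose log2 CPM followed this average most closely included Gpr137 (r 0.994), Cds2 (0.988), Ubqln1 (0.985) and Kif23 (0.982) over 6 libraries. Of genes on the chosen lists, the ER protein disulphide isomerase gene Txndc5 ranked 17 (r 0.962), the ER gene Sdf2l1 67 (0.933) and Ighg1 92 (0.923), while Cd93 had an r of -0.91, Itga4 of -0.83 and Cxcr4 of -0.75. Of the other plasma cell identity genes at this level, 7 had an r above 0 and 11 below 0, with a median of -0.20. The unfolded protein response and ER-associated degradation genes had 22 above 0 and 6 below 0 (median 0.47). Immunoglobulin constant genes had 9 above 0 and 2 below 0 (median 0.64), and B cell genes lost in plasma cells 7 above 0 and 10 below 0 (median -0.31). The members are part of the average, so their own r is in part built in: it ran from 0.962 for Prdm1 to 0.528 for Sec11c among the 6 at 10 CPM or more.

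Further plasma cell genes were also without a call. Of 20, all tested, 0 passed in either direction by edgeR, and at an unadjusted p under 0.05 there was 1 higher and 0 lower, against 1.83% higher and 3.69% lower among all tested genes. Of these genes 13 had a log2 fold change below 0 (65%, against 50.9% of all tested genes), and the median was -0.039. The gene higher at that level was Cd28, a costimulatory receptor that plasma cells share with T cells, at 101.3 ± 7.11 CPM in Top3b-KO and 90.2 ± 9.80 CPM in WT (SD, n = 3 each). The abundant Itga4, an integrin subunit used in lymphocyte homing, and Trp53inp1 had log2 fold changes of 0.11 and 0.062, and Ly6c2 had -0.15. Tnfrsf17, the gene of the plasma cell survival receptor BCMA, was scarce, at 0.651 ± 0.272 CPM in Top3b-KO and 0.811 ± 0.370 CPM in WT (SD, n = 3 each).

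In the unfolded protein response and ER-associated degradation, 29 of 30 listed symbols were tested (the other is an older symbol of Selenos) and 0 passed, with a median log2 fold change of 0.020. At an unadjusted p under 0.05, against 1.83% higher and 3.69% lower among all tested genes, there were 0 higher and 2 lower. These were Atf6b, an ER membrane transcription factor related to ATF6, at 63.2 ± 7.15 CPM in Top3b-KO and 77.1 ± 6.16 CPM in WT, and Syvn1, the ubiquitin ligase of ER-associated degradation, at 129.9 ± 16.2 CPM in Top3b-KO and 151.4 ± 3.06 CPM in WT (SD, n = 3 each). Their adjusted p-values were 0.670 and 0.829 by edgeR. Hspa5, the ER chaperone BiP, and Calr had log2 fold changes of 0.078 each.

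ER translocation, signal peptidase and glycosylation genes, 24 of 24 tested, had a median log2 fold change of 0.0031, with 12 above 0, 0 past the threshold and 0 at an unadjusted p under 0.05 by edgeR. Single values ran from -0.16 to 0.12. Stt3b, an oligosaccharyltransferase subunit, and Tram1 of the translocon were the most abundant, with log2 fold changes of -0.069 and 0.062, and Ssr2 and Ssr3 had -0.12 and 0.12. Among 15 tested paralogues of the members 0 passed. At an unadjusted p under 0.05 there was 1, against 5.52% of all tested genes. This was Sdc3, at 52.4 ± 5.35 CPM in Top3b-KO and 60.5 ± 3.33 CPM in WT (SD, n = 3 each).

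Genes that B cells lose as they become plasma cells were also without a call. Of 18 tested 0 passed, 14 had a log2 fold change below 0 (77.8%, against 50.9% of all tested genes) and the median was -0.030. At an unadjusted p under 0.05, 3 were lower (Id3, Spib and Irf8) and 0 higher, against 3.69% and 1.83% of all tested genes. Of the 18, 2 did not overlap between genotypes, against 11% of all tested genes. Id3, an inhibitor of E proteins, was the one with the smallest p-value, at 41.2 ± 3.02 CPM in Top3b-KO and 50.3 ± 4.89 CPM in WT (SD, n = 3 each), with an adjusted p of 0.670 by edgeR. Spib had a log2 fold change of -0.18 and Ets1 of 0.080. For immunoglobulin constant genes, 11 of 12 were tested, 0 passed and the median was -0.14, with Ighm at 2086 ± 132.8 CPM in Top3b-KO and 2278 ± 332.4 CPM in WT and Igkc at 533.1 ± 43.1 CPM in Top3b-KO and 562.2 ± 83.5 CPM in WT (SD, n = 3 each). The lambda constant genes Iglc2 and Iglc1, at log2 fold changes of -0.27 and -0.22, were the 2 of 11 that did not overlap between genotypes, against 11% of all tested genes.

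Other cells of the spleen use some of the members, and markers of those cells were read beside them. Plasmacytoid dendritic cell markers summed to 459.3 to 476.6 CPM in Top3b-KO libraries and 474.4 to 502.5 CPM in WT libraries. Tcf4 and Ly6d were the most abundant and weigh most in this sum. Of 12 listed, 12 were tested and none was at 0 counts throughout. A log2 fold change below 0 was found for 8 (66.7%, against 50.9% of all tested genes). Of the 12 markers, 4 did not overlap between genotypes, against 11% of all tested genes, with Top3b-KO below WT for 3 and above it for 1. Ly6d had a log2 fold change of -0.25 and an adjusted p of 0.538 by edgeR, and Cd209d had 0.73 with an adjusted p of 0.855. The scarcer Siglech was at 11.3, 9.86 and 4.76 CPM in Top3b-KO libraries and 12.9, 9.57 and 9.99 CPM in WT libraries. Its log2 fold change was -0.25, with an adjusted p of 0.951 by edgeR. Germinal centre markers summed to 329.5 to 375.1 CPM in Top3b-KO libraries and 334.0 to 361.3 CPM in WT libraries, and T cell markers to 1973 to 2040 CPM in Top3b-KO libraries and 1797 to 2035 CPM in WT libraries. Of the T cell markers 10 of 12 had a log2 fold change above 0, and the median was 0.084. The share below 0 was 16.7%, against 50.9% of all tested genes. For 2 of the 12 the groups did not overlap, with Top3b-KO above WT, against 11% of all tested genes in either direction. Cd3e, a chain of the T cell receptor complex, was at 173.6 ± 5.27 CPM in Top3b-KO and 154.6 ± 5.38 CPM in WT (SD, n = 3 each), with an adjusted p of 0.829 by edgeR. Erythroid markers, a sign of the blood left in the preparation, had 841.1 to 1240 CPM in Top3b-KO libraries and 1039 to 1830 CPM in WT libraries. All 9 tested had a log2 fold change below 0, against 50.9% of all tested genes. The groups overlapped for all 9, 0 passed, and the lowest adjusted p was 0.915 by edgeR. Hbb-bs, the most abundant, was at 751.4, 547.6 and 610.5 CPM in Top3b-KO libraries and 634.9, 1106 and 752.6 CPM in WT libraries. The part of these cells in the levels of the 10 plasma cell genes was not tested.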

How the data were processed

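Total RNA of mouse splenocytes was sequenced in 3 Top3b-KO and 3 WT libraries. The authors deposited expected counts per gene symbol, and reads were aligned with STAR to mm39 per the submitters' processing notes. The counter, its strand setting and its annotation are not named in those notes. Values that were not whole (tolerance 1e-06) occurred for 72 of 56413 symbols, none of them a member (0), and all were rounded. Genes passing filterByExpr (18716) were tested with edgeR 4.0.16 in R 4.3.3 (quasi-likelihood, TMM, robust, genotype only, two-sided, Benjamini-Hochberg adjustment over all genes, threshold 0.05). The fit was also run on counts simulated at the trended dispersion, and the outcome is not reported here. Such counts do not carry the larger spread of single genes such as Jchain. Alternatives used DESeq2 1.42.0, limma 3.58.1, other filters and scaling, a replicate block, and leaving out each library. Log2 CPM carried a prior count of 2.

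The members, gene lists and tests were chosen with earlier results of these data known. The family shares, the motifs and the comparison of spread with genes within 1.5-fold of the same mean level were chosen after values were seen. Named genes were the 10 members, Top3b, the members' paralogues, the 2 most abundant and the 2 of smallest p-value in each list, and the 5 genes above 10 CPM closest in pattern; others were chosen after their values were seen, and some genes the rule names are not reported here. Lengths and overlaps came from GENCODE M21 and promoters from RefSeq, both GRCm38, so mm39 positions are not given. Paralogues were matched by symbol, and Sdc2 and Fkbp14 were too low to test.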

Additional observations from a re-analysis of the deposited data

How the results depend on the processing

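The count of plasma cell secretory genes past the threshold was 0 under all 13 alternatives, and at an unadjusted p under 0.05 it was 0 or 1, the 1 being Sdc1 each time (no filter, the replicate block, and without WT replicate 3 or Top3b-KO replicate 1). Their median log2 fold change ran from -0.19 to -0.013 when a library was left out. Top3b stayed lower and past the threshold throughout (-0.90 to -0.84). Over all genes, 2 passed in the test as designed, 41 with the replicate block, 44 with every counted gene kept, 6 with DESeq2, and 1 each with limma-voom and robust=FALSE; leaving out a library gave 1 to 32. The labels do not say whether the replicate numbers pair the libraries. The correlation of deviations between libraries sharing a number was 0.156, -0.0067 and 0.0093 for replicates 1, 2 and 3. With no mismatched libraries set beside them, these values cannot settle whether the numbers pair the libraries.

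Sdc1, Fkbp11, Derl3 and Mzb1 kept a log2 fold change below 0 in all 13. Xbp1 turned to 0.0073 without a filter, 0.0085 with limma-voom and 0.0023 with the replicate block, and ranged from -0.077 to 0.12 over left-out libraries. Over left-out libraries Jchain ranged from -0.30 to 0.17, Creld2 from -0.20 to 0.11, Eaf2 from -0.11 to 0.11, Prdm1 from -0.19 to 0.0024 and Sec11c from -0.095 to 0.011, each changing sign at least once. The difference in share, in percentage points, ranged from -2.29 to 1.58 for Creld2, from -1.17 to 0.50 for Eaf2 and from -0.61 to 0.86 for Jchain, while those of Sec11c (-1.97 to -0.71), Derl3 (-0.78 to -0.32) and Sdc1 (-1.91 to -0.88) kept their sign. What causes these shifts was not tested. Depth limits Top3b-KO replicate 3 most, where 3 counts equal 0.303 CPM, and such floors cover counting error only.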
